A study of Stylosanthes guianensis with 6 samples.

Results

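Among the unigenes (assembled transcripts) of stylo (Stylosanthes guianensis) leaves, 7 of 102864 were placed by the study in the C2H2 zinc finger family of transcription factors. They were selected by the study from the unigenes whose levels differed between Mn toxicity and control leaves in these same 6 libraries. Their difference between the treatments was therefore used to choose them, and it is given here as a description without a test. The study's table of transcription factors holds 123 unigenes, all chosen in the same way. The plants were of 1 genotype of this forage legume, grown in hydroponic nutrient solution. Control plants received 5 µM Mn and Mn toxicity plants 400 µM Mn, as MnSO4, for 10 d, and both groups had first grown at a normal supply. Leaf RNA was sequenced as 3 libraries per group, each from the seedlings of 1 box. The labels write the concentrations in mM, whereas the series design and the methods give µM, which was used. In leaf RNA of this kind, fewer cells of a type and less RNA per cell cannot be told apart.

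C2H2 zinc finger proteins fold a short stretch of the protein around a zinc ion held by a pair of cysteines and a pair of histidines. Many plant members bind DNA through these fingers. The ZAT-type members of Arabidopsis, after which 2 of the 7 descriptions are named through matches in other species, carry a repression motif and are known for rapid responses to oxidative, cold, salt and wounding stress. STOP1, another Arabidopsis C2H2 protein, is known for tolerance to acid soil and aluminium.

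The family label rests on the study's annotation by similarity, and no unigene sequence was used here to check it. TRINITY_DN12526_c0_g1 is described as a Cys2-His2 zinc finger transcription factor of Medicago truncatula, and TRINITY_DN42276_c1_g1 as a C2H2 type family protein of the same species. TRINITY_DN54332_c0_g1 is described as ZAT12-like and TRINITY_DN47158_c1_g1 as ZAT11-like. TRINITY_DN13820_c0_g1 and TRINITY_DN46140_c3_g3 share 1 description, a zinc finger protein of the wild peanut Arachis diogoi, but are separate unigenes of 1661 and 1272 bp. TRINITY_DN41475_c5_g8 is described only as a zinc finger of C2H2 type. The prefix TRINITY_ is left out from here on. Lengths were inferred from the steps of the deposited values. Of the 7 unigenes, 6 also stand in the study's list of defence unigenes and the exception was DN41475_c5_g8.

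The sequences at hand for the family are the primers with which the study amplified DN41475_c5_g8 by qRT-PCR. They are shown because this unigene had the fewest reads in control leaves, and they name the transcript that can be measured apart from sequencing. Both are written 5′ to 3′ in lower case, and no base is marked.
DN41475_c5_g8 forward primer: tcatggatggtaggagcagga
DN41475_c5_g8 reverse primer: gtgccaactctctccggatt
The forward primer has 21 nt with a GC content of 52.4%, and the reverse primer 20 nt with a GC content of 55.0%.

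Values are RPKM, reads per kilobase of unigene relative to all mapped reads, as the authors deposited them. The library totals recovered from these values were 31.1 to 37.8 M reads (megareads). The Mn toxicity libraries were not alike. In Mn toxicity replicates 1 and 3, 40 abundant unigenes took 23.6% and 38.6% of the reads, against 1.62% in Mn toxicity replicate 2 and 0.966 to 1.78% in the controls. These 40 were chosen after seeing the data. The rule was a share of at least 0.1% of the reads in some library, more than 8 times the lowest share. A difference between libraries was thus part of the choice, and the shares are a description. The chloroplast-encoded photosystem II protein D1 meets this rule itself. It had 710 and 1267 RPKM in Mn toxicity replicates 1 and 3, against 37.2 to 72.3 RPKM in the other 4 libraries. All 4 photosystem unigenes examined were above 0 in every library, which is the only check made of the leaf label. No marker of another tissue was examined, so this cannot tell leaf from other tissue. Reads taken by the 40 abundant unigenes lower the RPKM of all others. Values after median-of-ratios scaling, which divides each library by its median ratio to a common reference, are therefore set beside the deposited ones. The size factors were 1.07 to 1.12 in the controls and 0.97, 1.29 and 0.63 in Mn toxicity replicates 1, 2 and 3.

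DN12526_c0_g1 had 5.23, 5.41 and 4.85 RPKM in control replicates 1, 2 and 3, and 33.2, 35.4 and 30.4 RPKM in Mn toxicity replicates 1, 2 and 3. All Mn toxicity libraries were high and the groups were far apart, the lowest Mn toxicity value being 5.63 times the highest control value. The means were 5.16 ± 0.29 and 33.0 ± 2.5 RPKM (SD, n = 3 each), and the log2 fold change on the log2(RPKM + 0.5) scale was 2.56 (SE 0.21). It was the largest of the 5 unigenes that entered the fit. After scaling, the Mn toxicity values were 34.1, 27.6 and 48.6, so that replicate 3 in place of replicate 2 was the highest, and the log2 fold change was 2.80 (SE 0.20).

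DN42276_c1_g1, the other unigene with a Medicago description, had 3.91, 3.85 and 3.93 RPKM in control replicates 1, 2 and 3, and 19.9, 16.3 and 16.6 RPKM in Mn toxicity replicates 1, 2 and 3. The controls were nearly equal and the groups did not overlap. Means were 3.90 ± 0.04 and 17.6 ± 2.0 RPKM (SD, n = 3 each), with a log2 fold change of 2.04 (SE 0.23). The spread among the controls, 1.04% of the mean, was smaller than the 10.0% that counting alone gives at its mean number of reads. The Mn toxicity libraries stood in another order here than for DN12526_c0_g1, with replicate 1 the highest as deposited. After scaling, replicate 3 was the highest, at 26.6, and replicate 2 the lowest, at 12.7, and the log2 fold change was 2.27 (SE 0.24).

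DN13820_c0_g1 had 9.27, 7.95 and 9.92 RPKM in control replicates 1, 2 and 3, and 23.0, 33.7 and 23.4 RPKM in Mn toxicity replicates 1, 2 and 3. Mn toxicity replicate 2 stood above the other two, and no value of 1 group lay within the range of the other. The means were 9.05 ± 1.01 and 26.7 ± 6.1 RPKM (SD, n = 3 each), and the log2 fold change was 1.49 (SE 0.24). After scaling it was 1.74 (SE 0.18), and the highest value moved to replicate 3, at 37.4.

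DN46140_c3_g3, which shares its description with DN13820_c0_g1, was the most abundant of the 7 in both groups. It had 22.6, 20.7 and 24.3 RPKM in control replicates 1, 2 and 3, and 44.4, 60.5 and 36.1 RPKM in Mn toxicity replicates 1, 2 and 3. The groups did not overlap, but the lowest Mn toxicity value was only 1.49 times the highest control value. Its means were 22.5 ± 1.8 and 46.99 ± 12.4 RPKM (SD, n = 3 each), and the log2 fold change of 1.02 (SE 0.23) lay nearest to the limit of 1 that the study also used for its selection. After scaling, the Mn toxicity values drew together, at 45.6, 47.1 and 57.6, and the log2 fold change was 1.26 (SE 0.12). The coefficient of variation of the Mn toxicity libraries was 26.4% as deposited and 13.1% after scaling. For DN12526_c0_g1 it went the other way, from 7.61% to 29.3%, and for DN42276_c1_g1 from 11.5% to 35.1%. Values just outside the study's limit are not given, because unigenes it left out carry no family name in the sources used here.

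**Figure D1:**
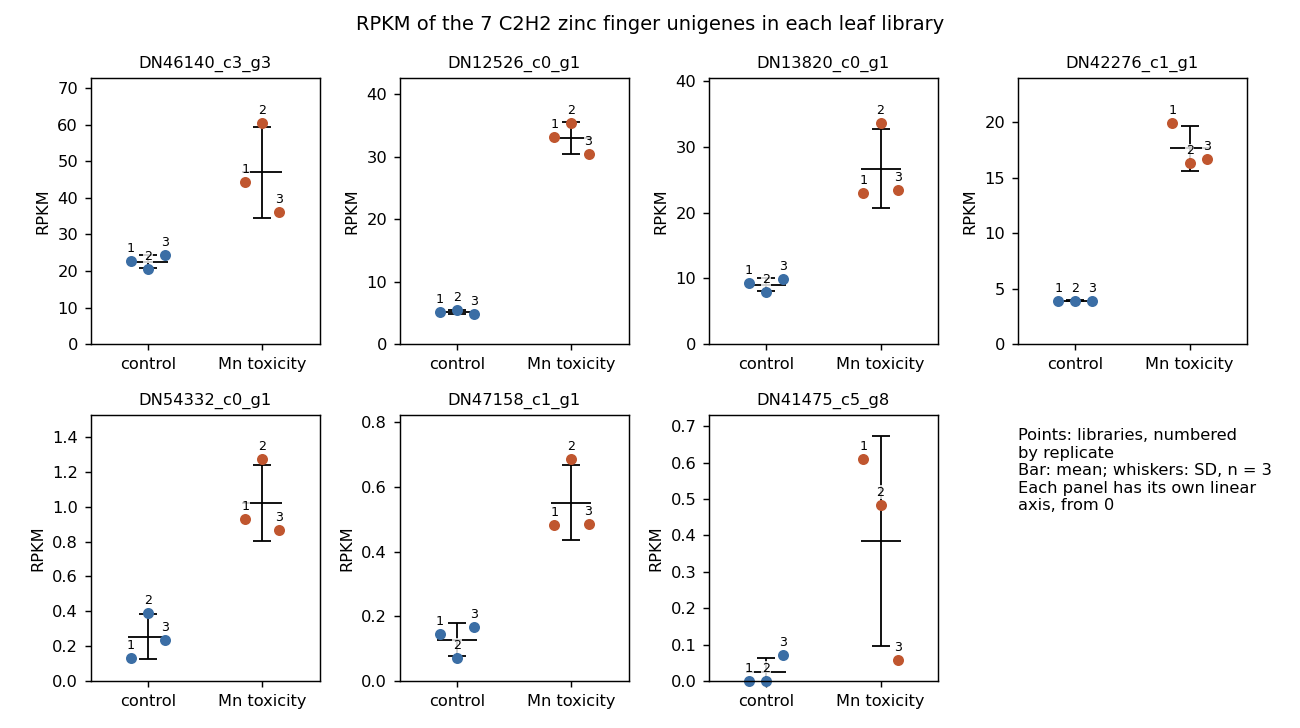
RPKM as deposited (y axis, linear from 0, a separate scale per panel) of each C2H2 zinc finger unigene in the control and Mn toxicity libraries (x axis). Points are libraries numbered by replicate, the long bar is the mean and the whiskers are the SD (n = 3). The groups are apart in 6 panels. In the panel of DN41475_c5_g8, Mn toxicity replicate 3, at 0.0580 RPKM, lies below control replicate 3, at 0.0703 RPKM. The unigenes were selected on this contrast, so nothing is read from this count. Of the 30913 unigenes that entered the fit, 9.41% had all Mn toxicity libraries above all controls.

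The remaining 3 unigenes were weakly expressed, and 1 read was worth 0.0290 to 0.0419 RPKM for them. For these, the reads themselves are given, with the ratio of the summed reads corrected for the library totals and its exact 95% interval. These intervals cover counting error alone. Reads of a PCR-amplified library are not independent molecules.

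DN54332_c0_g1, the ZAT12-like unigene, had 4, 12 and 6 reads in control replicates 1, 2 and 3, and 29, 38 and 27 reads in Mn toxicity replicates 1, 2 and 3. Every Mn toxicity library held more reads than any control. These reads correspond to 0.253 ± 0.130 and 1.02 ± 0.22 RPKM (SD, n = 3 each). The ratio was 3.99, with an interval of 2.49 to 6.67. Its log2 fold change of 1.02 (SE 0.30) is pulled down by the pseudocount and was 1.72 with a pseudocount of 0.1 and 0.69 with a pseudocount of 1.

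DN47158_c1_g1, the ZAT11-like unigene, had 4, 2 and 4 reads in control replicates 1, 2 and 3, and 14, 19 and 14 reads in Mn toxicity replicates 1, 2 and 3. Again the groups did not overlap. The levels were 0.127 ± 0.051 and 0.551 ± 0.116 RPKM (SD, n = 3 each), and the ratio of reads was 4.39, with an interval of 2.19 to 9.75. Its mean over the 6 libraries, 0.339 RPKM, was below the minimum of 0.5 for the fit.

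DN41475_c5_g8 had no read in control replicates 1 and 2 and 2 reads in control replicate 3, against 21, 16 and 2 reads in Mn toxicity replicates 1, 2 and 3. Mn toxicity replicate 3 was no higher than the highest control, so the groups overlapped as deposited. The ratio of 39 to 2 reads was 18.2, with an interval of 4.72 to 156, and the width of this interval comes from the 2 control reads. The ratio was 11.9 without control replicate 1 and 11.7 without control replicate 2, and it has no finite value without control replicate 3, which holds both control reads. After scaling the lowest Mn toxicity value was 0.0927 and the highest control value 0.0630, each resting on 2 reads. It too stayed below the minimum for the fit, with a mean of 0.204 RPKM.

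In limma on the deposited RPKM, where a call needed an adjusted p under 0.05 and a log2 fold change of 1 or more in size, 5 of the 7 unigenes entered the fit and 4 of them were called higher. Over all 30913 unigenes tested, 2.09% were called higher and 3.69% lower. After median-of-ratios scaling all 5 were called higher, against 4.39% of all unigenes. As deposited, each of the 5 had all its Mn toxicity libraries above all its controls, as had 9.41% of the unigenes tested. Because the unigenes were selected on this contrast, nothing is read from these counts. The median log2 fold change was 1.49 over the 5 and -0.20 over all unigenes tested, and scaling moved them to 1.74 and 0.00.

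The log2 fold changes of the 5 unigenes under other settings kept their sign, and the size depended on the scaling. When the RPKM of each library were brought to the same sum, DN12526_c0_g1 alone stayed called, with a log2 fold change of 2.19, and DN46140_c3_g3 had 0.62. With each library left out in turn, DN12526_c0_g1 lay between 2.51 and 2.62 and DN46140_c3_g3 between 0.82 and 1.19. Without Mn toxicity replicate 3, all 5 unigenes were called, while the calls over all unigenes tested rose from 1787 to 2848. Leaving out control replicate 2 or control replicate 3 kept the call for DN12526_c0_g1 and DN42276_c1_g1 and lost it for DN13820_c0_g1 and DN46140_c3_g3. Over all unigenes these omissions left 370 and 289 calls. DN46140_c3_g3 was also not called without control replicate 1, Mn toxicity replicate 1 or Mn toxicity replicate 2. Those omissions gave 390, 423 and 4977 calls over all unigenes, in the same order.

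**Figure D2:**
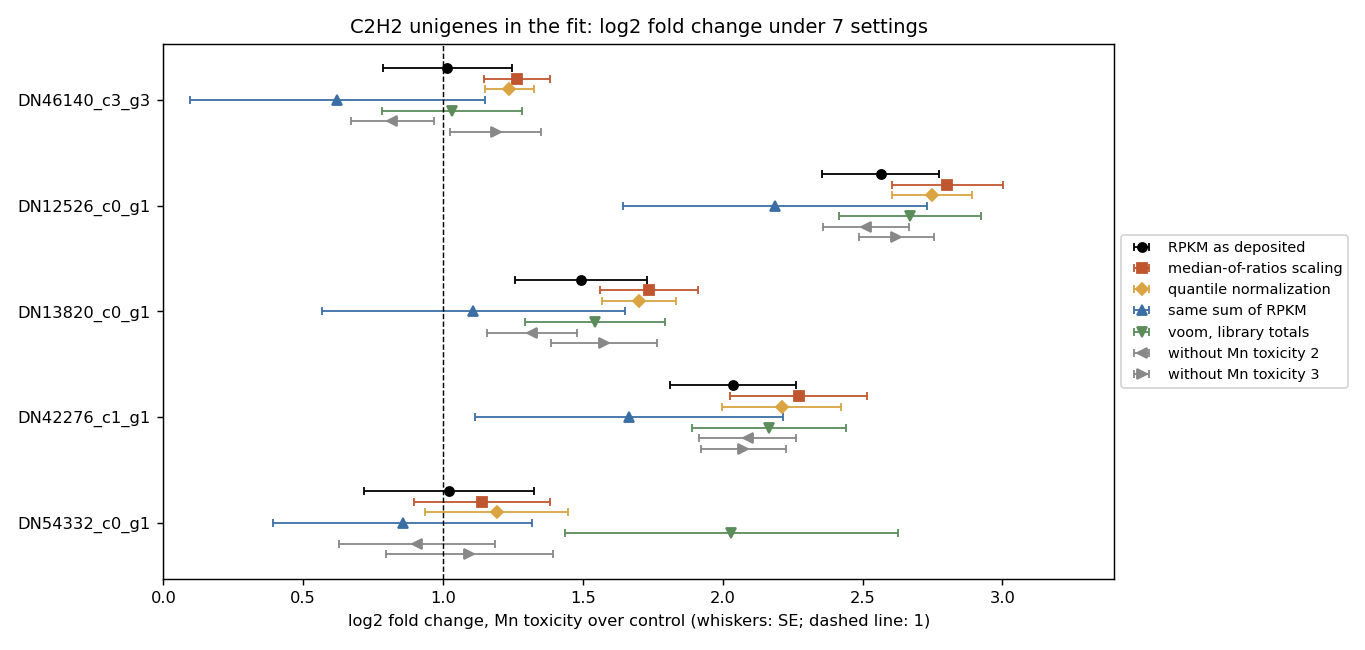
Log2 fold change of Mn toxicity over control (x axis, whiskers SE) for the 5 C2H2 zinc finger unigenes in the fit (y axis), under 7 settings shown by symbol. The dashed line marks a log2 fold change of 1. DN12526_c0_g1 stays to the right of 2 in all 7, while DN46140_c3_g3 ranges from 0.62 to 1.26.

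Summed over the 7 unigenes, the level was 41.3, 38.3 and 43.4 RPKM in control replicates 1, 2 and 3, and 123, 148 and 108 RPKM in Mn toxicity replicates 1, 2 and 3. The means were 41.02 ± 2.56 and 126 ± 20 RPKM (SD, n = 3 each). Of the increase in the sum, DN12526_c0_g1 made up 32.7%, DN46140_c3_g3 28.7%, DN13820_c0_g1 20.7% and DN42276_c1_g1 16.1%. The ZAT11-like, ZAT12-like and DN41475_c5_g8 unigenes together took under 2% of it.

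The make-up of the family differed between the groups. These shares are ratios within a library, which scaling by a common factor per library does not change. DN46140_c3_g3 held 53.9 to 55.9% of the summed RPKM in the controls and 33.4 to 40.8% in the Mn toxicity libraries. DN12526_c0_g1 went from 11.2 to 14.1% in the controls to 23.9 to 28.2% in the Mn toxicity libraries. The ranges of the groups were apart for both. By contrast, the share of DN13820_c0_g1 was 20.7 to 22.8% in the controls and 18.8 to 22.7% in the Mn toxicity libraries, and these overlapped. As a ratio to DN46140_c3_g3 in the same library, DN12526_c0_g1 was 0.23 ± 0.03 in the controls and 0.73 ± 0.13 under Mn toxicity (SD, n = 3 each).

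**Figure D3:**
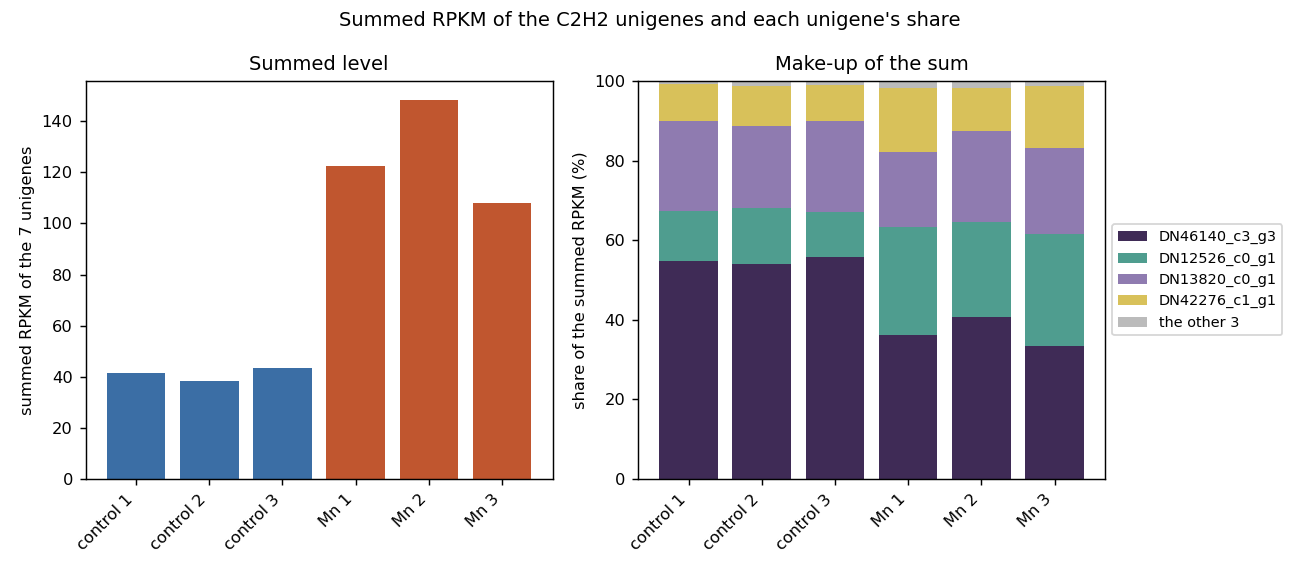
Left, summed RPKM of the 7 C2H2 zinc finger unigenes (y axis, from 0) in each library (x axis), with controls in blue and Mn toxicity in orange. Right, the share of each unigene in that sum, in percent, in which DN46140_c3_g3 takes 53.9 to 55.9% of the control sums and 33.4 to 40.8% of the Mn toxicity sums.

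In the controls the order of the levels was DN46140_c3_g3, DN13820_c0_g1, DN12526_c0_g1, DN42276_c1_g1, DN54332_c0_g1, DN47158_c1_g1 and DN41475_c5_g8. The ranges of neighbours in this order were apart except those of DN54332_c0_g1 and DN47158_c1_g1. For DN47158_c1_g1 and DN41475_c5_g8 the gap carries no weight, since the lowest value of the former, 0.0704 RPKM, and the highest of the latter, 0.0703 RPKM, are both 2 reads. Under Mn toxicity DN12526_c0_g1 stood second, at 30.4 to 35.4 RPKM, but its range overlapped that of DN13820_c0_g1, at 23.0 to 33.7 RPKM. The ranges of DN47158_c1_g1 and DN41475_c5_g8 overlapped as well. The step between the 4 abundant and the 3 weakly expressed unigenes was wide in both groups, from 3.90 to 0.253 RPKM in the controls and from 17.6 to 1.02 RPKM under Mn toxicity.

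Unigenes of the same assembly component share graph sequence with a member, so that reads may be divided among them. DN12526_c0_g1, DN13820_c0_g1 and DN54332_c0_g1 had no such neighbour. The other members had 18, of which 13 entered the fit and none was called by limma with Benjamini-Hochberg adjustment, nor by limma voom on the recovered reads. At an unadjusted p under 0.05, 1 was higher and 1 lower, and the share of all unigenes at this limit was not counted. The median log2 fold change of the 13 was 0.02. The members were selected on this contrast and the neighbours by component, so the sets are not compared. Over all unigenes tested, limma called 2.09% higher and 3.69% lower. The most abundant neighbour of DN46140_c3_g3 was DN46140_c3_g1, at 36.2, 38.4 and 34.8 RPKM in control replicates 1, 2 and 3, and 45.1, 44.6 and 39.9 RPKM in Mn toxicity replicates 1, 2 and 3. These groups were close but apart, and its log2 fold change was 0.24 (SE 0.18, limma adjusted p = 0.449, range over the alternatives 0.0198 to 0.881). The most abundant neighbour of DN41475_c5_g8, DN41475_c5_g2, had 38.2, 37.8 and 40.0 RPKM in control replicates 1, 2 and 3 and 27.6, 35.6 and 17.1 RPKM in Mn toxicity replicates 1, 2 and 3, with a log2 fold change of -0.58 (SE 0.26). For DN42276_c1_g1 the most abundant neighbour was DN42276_c1_g2, with 3.21 ± 0.54 and 3.36 ± 1.18 RPKM (SD, n = 3 each), and for DN47158_c1_g1 it was DN47158_c1_g3, with 14.1 ± 0.5 and 12.4 ± 3.3 RPKM. After median-of-ratios scaling 2 of the 13 neighbours were called, against 1358 higher and 1154 lower of all 30913 unigenes tested. DN41475_c5_g4 was higher, with a log2 fold change of 1.15 (limma adjusted p = 0.00255), and DN46140_c3_g5 was lower, with -1.04 (limma adjusted p = 0.0490).

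**Figure D4:**
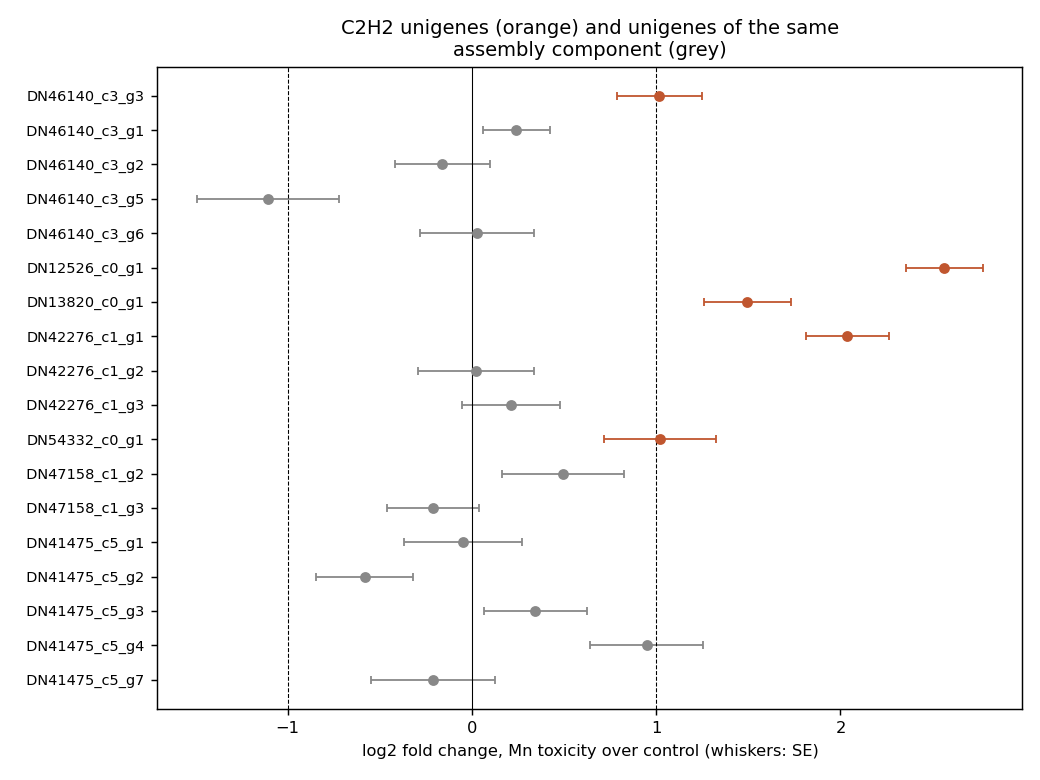
Log2 fold change of Mn toxicity over control (x axis, whiskers SE, RPKM as deposited) for the 5 C2H2 zinc finger unigenes in the fit, in orange, and the 13 tested unigenes of the same components, in grey (y axis). Dashed lines mark -1 and 1. The grey points run from -1.11 to 0.95 and the orange ones from 1.02 to 2.56. The study selected the orange unigenes on this contrast with a limit of 1, and the grey ones were taken by component. Nothing is therefore read from the gap between them.

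The study's table holds 9 zinc finger unigenes of other classes, whose fingers are built differently, namely 6 Dof, 2 zinc finger homeodomain and 1 CCCH unigene. They were chosen on these samples too, so their directions are not independent evidence. Of the 7 that entered the fit, none was called higher and 2 were called lower, against 2.09% and 3.69% of all unigenes tested. The median log2 fold change of the 7 was -1.03. Limma voom gave the same counts, and at an unadjusted p under 0.05 in limma 1 was higher and 4 lower. The share of all unigenes at this unadjusted limit was not counted. Both unigenes called lower belong to the plant-specific Dof class. DN45788_c3_g7 fell from 173 ± 3 to 72.9 ± 16.9 RPKM (SD, n = 3 each), with a log2 fold change of -1.27 (SE 0.20, limma adjusted p = 0.00647, range over the alternatives 5.42e-05 to 0.0708). DN56972_c0_g1 fell from 5.95 ± 0.15 to 1.66 ± 0.31 RPKM, with a log2 fold change of -1.58 (SE 0.26, limma adjusted p = 0.00903, range 0.000462 to 0.110). After scaling both stayed lower, where 1154 of all 30913 unigenes tested were called lower. Of the 7, 1 was called higher after scaling, against 4.39% of all unigenes tested. The count called in either direction was 6 when Mn toxicity replicate 3 was omitted and 3 when replicate 2 was. It was 1 without control replicate 1 or Mn toxicity replicate 1, and 0 without control replicate 2 or control replicate 3. Over all unigenes these omissions gave 2848, 4977, 390, 423, 370 and 289 calls, in the order named, against 1787 with every library. Neither of 2 further unigenes with a zinc finger description, MAGPIE-like and AN1 domain, was called as deposited, and after scaling the AN1 domain unigene was called higher.

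The study's predicted network linked 6 of the C2H2 unigenes, without DN41475_c5_g8, to a pair of unigenes for cinnamyl alcohol dehydrogenase, which makes the alcohol precursors of lignin. DN21432_c0_g1 had 29.5, 28.3 and 31.0 RPKM in control replicates 1, 2 and 3, and 61.9, 56.8 and 57.5 RPKM in Mn toxicity replicates 1, 2 and 3. The groups were apart, with a log2 fold change of 0.98 (SE 0.18, limma adjusted p = 0.0138, range 0.00196 to 0.530), just under the limit of 1, and it was called after scaling, at 1.23. DN45912_c0_g3 had 3.94 ± 0.38 and 6.58 ± 0.49 RPKM (SD, n = 3 each). Its log2 fold change was 0.67 (SE 0.24, limma adjusted p = 0.124, range 0.00608 to 0.761), and it was not called as deposited or after scaling. It was called, at 1.01, with the abundant unigenes left out, where 2620 of all unigenes were called. After scaling without Mn toxicity replicate 2 it was called too, at 1.08, where 3453 of all were.

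Of 12 unigenes for enzymes and transporters of the kinds that STOP1-type C2H2 proteins control in Arabidopsis or that take part in organic acid release and pectin modification, 9 entered the fit. None was called higher as deposited, in limma or limma voom, and 1 was called lower. Over all unigenes tested, limma called 2.09% higher and 3.69% lower. The median log2 fold change of the 9 was 0.81. All Mn toxicity libraries were above all controls for 5 of the 9, against 9.41% of all unigenes tested. At an unadjusted p under 0.05 in limma, 5 of the 9 were higher and 2 lower. The share of all unigenes at this unadjusted limit was not counted, so nothing is read from these counts. The unigene called lower, DN47101_c2_g4, is described as a pectinesterase/pectinesterase inhibitor, the former being an enzyme that removes methyl groups from cell wall pectin. It fell from 144 ± 3 to 44.7 ± 16.6 RPKM (SD, n = 3 each), with a log2 fold change of -1.73 (SE 0.25, limma adjusted p = 0.00469). After scaling 3 of the 9 were called higher and 1 lower, against 1358 and 1154 of all 30913 unigenes tested. The log2 fold changes of the 3 were 1.15 for DN42945_c1_g2 (glutamate dehydrogenase), 1.19 for DN43505_c2_g9 (malic enzyme-like) and 1.01 for DN44287_c2_g4 (DETOXIFICATION 14-like). Calls in either direction came to 5 when Mn toxicity replicate 3 was omitted, where 2848 of all unigenes were called. Of 2 ascorbate peroxidases, the enzymes that reduce hydrogen peroxide with ascorbate, neither was called as deposited. The cytosolic one, DN40006_c1_g1, had 228 ± 2 and 430 ± 54 RPKM, a log2 fold change of 0.91 (SE 0.16, limma adjusted p = 0.0128), and was called after scaling, at 1.16. These lists also came from the study's differing unigenes.

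Of 3 further transcription factor families of the same table, likewise chosen on these samples, the values are set beside those of the C2H2 unigenes. Of 21 AP2 unigenes in the fit, 5 were called higher, with a median log2 fold change of 1.04. WRKY had 2 of 8 called higher, with a median of 0.92, and HSF 1 of 5, with a median of 0.85. None of these 3 families had a unigene called lower in limma or limma voom. At an unadjusted p under 0.05 in limma 1 AP2 unigene was lower, and the share of all unigenes at this limit was not counted. Over all unigenes tested, 2.09% were called higher. After scaling the counts called higher were 15, 4 and 4, against 4.39% of all unigenes. These counts changed when 1 library was left out, and so did the count over all 30913 unigenes tested, 1787 with every library. Without Mn toxicity replicate 3, 13 AP2, 5 WRKY and 5 HSF unigenes were called, against 2848 of all. Leaving out any 1 control gave 2 AP2 and 0 WRKY unigenes, against 289 to 390 of all. Without Mn toxicity replicate 1 there were 3 AP2 and 0 WRKY, against 423. Without Mn toxicity replicate 2 there were 9 AP2, against 4977. HSF had 1 call in each omission but that of Mn toxicity replicate 3.

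For each C2H2 unigene, the other transcription factor of the table with the most similar profile was found among 116, as the root mean square difference of log2(RPKM + 0.5), centred per unigene, over the 6 libraries. DN54332_c0_g1 was closest to the Dof unigene DN42065_c1_g2, with a difference of 0.08. DN13820_c0_g1 was closest to a MYB unigene, DN45002_c0_g2, with 0.09. DN12526_c0_g1 was closest to an AP2 unigene described as a drought responsive element binding protein, DN13437_c0_g1, with 0.26, and DN42276_c1_g1 to the MYB unigene DN45716_c1_g1, with 0.21. For DN46140_c3_g3 it was DN42359_c0_g1, with 0.11, which the table files under NAM although its description is an aspartyl protease. For DN47158_c1_g1 it was an AP2 unigene, DN7142_c0_g1, and for DN41475_c5_g8 a PHD unigene, DN42353_c0_g8, both with 0.09. The pseudocount of 0.5 flattens the profiles of weakly expressed unigenes. The root mean square of the own centred profile was 0.39 for DN47158_c1_g1 and 0.47 for DN41475_c5_g8, against 1.28 for DN12526_c0_g1. A smaller difference is therefore not read as a closer match from 1 C2H2 unigene to another. The nearest other C2H2 unigene differed by 0.19 to 0.29, but it was sought among only 6 candidates, so the 2 differences are not compared. All 6 points share the libraries and their uneven reads.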

How the data were processed

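Clean reads were assembled by the authors with Trinity and mapped back with Bowtie2 2.2.3, and RSEM, its version not given in the sources used here, gave the RPKM that were deposited, 1 table per library. No genome was used. The treatments were compared with limma 3.58.1 (R 4.3.3) on log2(RPKM + 0.5) of unigenes whose mean RPKM was 0.5 or more, with an intensity trend and Benjamini-Hochberg adjustment. A call needed an adjusted p under 0.05 and a log2 fold change of 1 or more in size. Whole reads, within 0.01 read, and lengths were recovered from the RPKM steps for all 43500 unigenes above 0 in at least 4 libraries. Where limma voom was fitted to these reads, it called 1330 unigenes. The scripts were tested on simulated data.

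The members and lists were chosen with earlier results of these data known. Named were all 7 members, the most abundant or called component neighbours, called unigenes of the other lists and the most similar profiles. The alternatives were other pseudocounts, minimum values, scalings and variance models, a replicate block and the omission of each library. Replicates are separate boxes. The study's tables served as lists of unigenes, and its fold changes and p-values were not used.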

Additional observations from a re-analysis of the deposited data

How the results depend on the processing

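Among all unigenes tested, 1787 were called. With median-of-ratios scaling it was 2512 and with quantile normalization 2567. With the abundant unigenes left out, a setting chosen after seeing the data, it was 2620. The count was 1179 with the same sum of RPKM, 2693 with a replicate block, and 289 to 4977 with 1 library left out, the highest without Mn toxicity replicate 2 and the lowest without control replicate 3. Chosen after seeing the data, voom on recovered reads with median-of-ratios scaling called 3001, and median-of-ratios scaling called 3453 when Mn toxicity replicate 2 was omitted and 2895 when replicate 3 was. The C2H2 count of 4 was 1 with the same sum of RPKM and 2 to 5 with 1 library left out. It was 5 with median-of-ratios scaling, quantile normalization or the abundant unigenes left out, and 3 without the trend. The count of 0 component neighbours called was 2 with median-of-ratios scaling, 1 with quantile normalization, with the abundant unigenes left out and with voom and median-of-ratios scaling, 0 to 1 without 1 library, and 1 to 2 without 1 library after scaling. The cause was not tested.

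Same-numbered libraries of the 2 groups did not deviate together as deposited (r = 0.08, -0.15 and -0.08 for replicates 1, 2 and 3). With 3 libraries per group and uneven Mn toxicity libraries, these values cannot exclude a pairing by number. The replicate block left the C2H2 count at 4 and raised the calls over all unigenes from 1787 to 2693. With 3 libraries per group, of which Mn toxicity replicates 1 and 3 hold many reads of a few unigenes, the size of each change depends on the scaling. For DN47158_c1_g1 and DN41475_c5_g8 the few control reads limit the precision.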
